A study of Mus musculus with 20 samples.

Results

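Macrophage polarization genes are used to grade macrophages between a classically activated and an alternatively activated state. The 4 genes described here, Nos2, Mrc1, Retnla and Chil3, were taken by their exact gene names from the 54532 genes listed in each deposited count table. Nos2 encodes the inducible nitric oxide synthase, which uses arginine to make nitric oxide. In mouse macrophages it is induced by interferon gamma and bacterial products, whereas IL-4 and IL-13 act through STAT6 to induce the mannose receptor Mrc1 (CD206), the secreted resistin-like protein Retnla (FIZZ1) and the chitinase-like protein Chil3 (Ym1). In the liver Mrc1 is also a gene of sinusoidal endothelial cells, so tissue and sorted cells have to be read separately.

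Liver tissue was collected from wild-type (WT) C57BL/6 mice. Normal liver (con) came from mice given normal saline, at day 0, and all other samples came from mice injected with 1000000 MC38 cells, a mouse colon adenocarcinoma line that grew as colorectal liver metastases (CRLM). The tumor-centric tissue series held low-content tumor (Lt) and medium-content tumor (Mt3), both at day 9, medium-content tumor at day 11 (Mt2 and Mt1), high-content tumor at day 12 (Ht), and tumor-free liver distant from the tumor at day 12 (L-con). Cells bound by F4/80 or by CD11b microbeads were isolated from medium-content tumor (Mt2) at day 11, with 3 libraries of each. After summing, each tissue group had 2 samples, except L-con with 1. The labels give male mice for the tissue and no sex for the sorted cells, while the Methods give female mice of 6 to 8 weeks of age. The female-specific transcript Xist had 0 to 3 counts in the tissue libraries and 5547 to 21805 in the sorted cells, and Y-linked Ddx3y had 348 to 1421 counts in the tissue and 0 in the sorted cells. Sex-linked transcripts and the separate count tables thus differed between tissue and sorted cells, and their part cannot be told apart from the difference between tissue and sorted cells. Ht was sequenced in 3 libraries, of which the first and the third are described in the Methods as made identical. Their counts were summed to 1 sample, although over 15284 genes they differed by 30.3 (chi-square divided by its degrees of freedom) and by more than the other pairs of Ht libraries did (29.1 and 13.2). The Methods describe separate livers for the tissue groups, but nothing says whether the sorted libraries came from separate mice, so p-values measure the spread between these samples, which may be technical.

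The deposited values are reads counted on each gene. Total counts ran from 16032085 to 18246623 per tissue library and from 17785496 to 20548370 per sorted library. A floor of 3 counts equals 0.164 to 0.187 CPM, the counts scaled to 1000000 per library, in tissue and 0.146 to 0.169 in sorted cells, and it covers counting error only. Levels are given as CPM scaled by edgeR's TMM method over all 19 samples together. A gene counted as called higher or lower where edgeR gave an adjusted p no greater than 0.05 and a log2 fold change of 1 or more in size, which are the limits the study used. The p-values come from the quasi-likelihood F test and were adjusted by Benjamini and Hochberg's method over all genes tested.

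Set against each other per length, as mean FPKM, the 4 genes differed in order between tissue and sorted cells. Mrc1 had the highest FPKM of the 4 in every tissue group, from 15.97 in Lt to 34.9 in Ht, while Chil3 ran from 0.168 in con to 10.6 in Mt1. In F4/80+ cells the means of Mrc1 and Chil3 lay close together at 106 and 101 FPKM. Their order differed between the libraries, with Mrc1 at 139, 90.0 and 88.3 FPKM and Chil3 at 54.1, 76.8 and 173. In CD11b+ cells Chil3 led with 252 FPKM, followed by Mrc1 at 87.5. Nos2 and Retnla stayed at or below 2.48 FPKM in every group, with Nos2 at 0.63 FPKM in F4/80+ and 0.456 in CD11b+ cells.

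**Figure D1:**
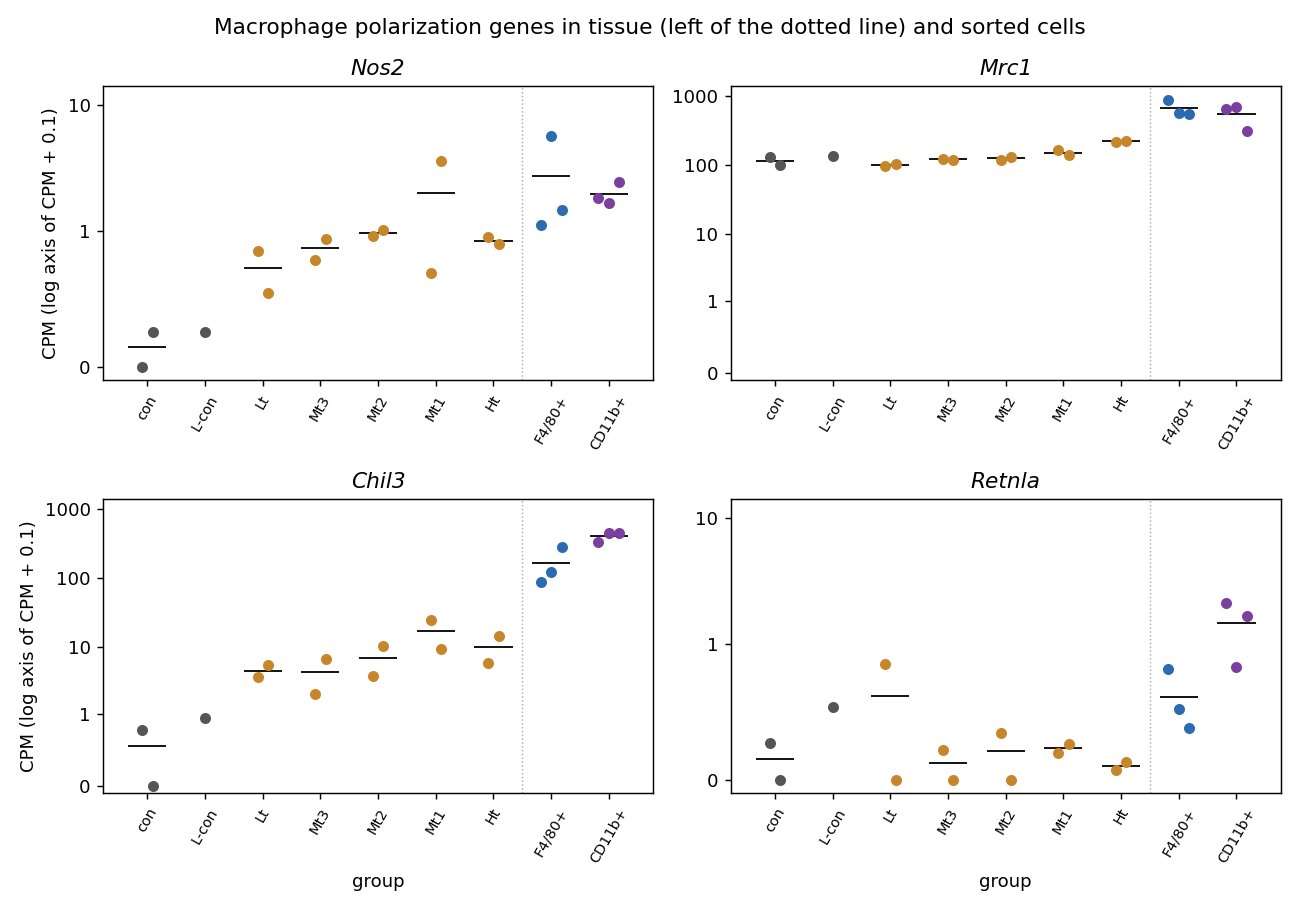
TMM-scaled CPM of each of the 4 genes in every sample, on a log axis of CPM + 0.1; points are samples, black lines are group means, and tissue groups stand to the left of the dotted line. Mrc1 is highest among tissue groups in Ht, where the samples sit at 221 and 224 CPM, whereas Chil3 is at least 88.3 CPM in every sorted library and at most 25.1 CPM in every tissue sample.

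The tissue comparisons ask how these genes changed from normal liver through low-content to high-content tumor. From con to Lt, 0 of the 3 members that passed the filter on low counts were called by edgeR. Of all genes tested, 12.4% were called higher and 0.256% lower. Fewer of all genes were called without con replicate 1, con replicate 2 or Lt replicate 2. Among the members, 1 had an unadjusted p under 0.05, beside 4917 of all 17187 genes, and DESeq2 called 1, in both cases Chil3. Over the alternatives that kept every sample of both groups, 1154 to 3146 of all genes were called. From con to Ht, 2 of 3 were called higher, Nos2 and Chil3, beside 25.8% of all genes called higher and 24.1% lower, and without con replicate 2 or either Ht replicate the count was 1. From Lt to Ht, Mrc1 alone was called, higher, beside 11.7% and 20.2% of all genes, or 2004 higher and 3476 lower. Under total-count scaling this balance turned, to 6216 higher and 2081 lower. Fewer of all genes were called from Lt to Ht without Ht replicate 1, Ht replicate 2 or Lt replicate 1. Between Mt, which stands for the average over Mt1, Mt2 and Mt3, and Ht, edgeR and DESeq2 called 0 of 3. Of all genes, edgeR called 1.5% higher and 13.4% lower, or 257 and 2306 genes, which total-count scaling turned to 2587 and 1773. Of the members, Mrc1 alone had an unadjusted p under 0.05, as had 6982 of all 17187 genes. Leaving out Ht replicate 1 or 2 left 0 genes called by edgeR in the whole table in that comparison, with 3760 and 4074 at an unadjusted p under 0.05. Retnla did not pass the filter in tissue. With calls this frequent among all genes, these counts do not set the 4 genes apart.

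The sorted cells were compared with each other and with the Mt2 tissue samples, whose labels give the same tumor content and day but which differed from them in the sex-linked transcripts above. Between CD11b+ and F4/80+ cells, 0 of 4 members were called by edgeR, where 0.00701% of all genes were called higher and 0.0701% lower in F4/80+ cells. Of the 4, Retnla and Chil3 had an unadjusted p under 0.05, as had 1503 of all 14263 genes. DESeq2 called 1, Chil3, beside 300 of all genes (133 higher and 167 lower). Leaving out CD11b+ replicate 3 gave 136 of all genes, and leaving out F4/80+ replicate 1 or 2 or CD11b+ replicate 2 gave 0 of all genes by edgeR, with 1008, 844 and 1914 at an unadjusted p under 0.05. From Mt2 tissue to F4/80+ cells, 2 of 4 were called higher (Mrc1 and Chil3) and 0 lower, beside 17.2% and 25.2% of all genes. From Mt2 tissue to CD11b+ cells, 3 of 4 were called higher (Mrc1, Retnla and Chil3) and 0 lower, beside 17.6% and 26.3%. Both comparisons share the Mt2 samples and are not independent of each other.

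Hepatocyte transcripts differed widely between the tissue samples. The 11 hepatocyte genes summed to 206008 and 174223 CPM in con, 110126 and 30892 CPM in the Mt2 samples, 106294 and 29079.5 in those of Mt1, and 4111 and 6042 in Ht, with Alb the most abundant in every tissue group and none at 0. All 11 were called lower from con to Ht, beside 24.1% of all genes. Cps1, which makes carbamoyl phosphate in the first step of the urea cycle of hepatocytes, had 94020 and 86536 counts in con and 2830 (summed) and 2012 in Ht. In the sorted cells it had 16, 10 and 6 counts in F4/80+ and 0, 0 and 2 in CD11b+ cells. There the summed hepatocyte genes reached 209 to 373 CPM in F4/80+ and 69.7 to 199 in CD11b+ cells, with Alb again the most abundant. In bulk tissue, fewer cells of a type and less RNA per cell cannot be told apart.

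Nos2 (ENSMUSG00000020826, GRCm38 chr11:78920787-78960254, plus strand), the inducible nitric oxide synthase, stayed low throughout. Con had 0 and 1 counts, L-con 1, Lt 9 and 4, Mt3 8 and 13, Mt2 14 and 24, Mt1 7 and 83, and Ht 45 (summed) and 21. As CPM, con had 0 and 0.0863, L-con 0.0864, Lt 0.672 and 0.267, Mt3 0.561 and 0.851, Mt2 0.911 and 1.02, Mt1 0.425 and 3.66, and Ht 0.881 and 0.769. Every Lt, Mt and Ht sample was above both con samples, and Mt1 replicate 2 was the highest sample of the tissue series. With 1 count in all of con, the ratio of Ht to con was 18.7 with a counting interval of 3.25 to 751 (95%, exact, counting error only), and that of Lt to con was 10.3 with 1.55 to 439. Fitted between con and Ht, the log2 fold change was 4.02 (SE 1.41, edgeR adjusted p = 0.0309), and leaving out con replicate 1 or 2 or Ht replicate 1 or 2 ended the call (adjusted p of 0.143, 0.0709, 0.0738 and 0.0563) and gave 3.16, 7.04, 3.89 and 4.11. Without con replicate 2 con was at 0 counts, and 7.04 gives no bound. Between con and Lt it was 3.21 (SE 1.55, edgeR adjusted p = 0.207). Leaving out 1 library moved it from 2.34 to 6.22, a range that includes the fit with con at 0 counts. From Mt to Ht it was -0.44 (SE 0.69, edgeR adjusted p = 0.655), and without Mt1 replicate 2 it turned to 0.31.

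In F4/80+ cells Nos2 was at 1.11, 5.75 and 1.48 CPM, and in CD11b+ cells at 1.85, 1.69 and 2.50. The second F4/80+ library, with 117 counts, stood above the rest, and F4/80+ cells, Mt1 and CD11b+ cells, at the top of the order of means (2.78 ± 2.58, 2.04 ± 2.29 and 2.01 ± 0.425 CPM, SD), overlapped. In F4/80+ relative to CD11b+ cells its log2 fold change was 0.42 (SE 0.61, edgeR adjusted p = 0.758), and -0.68 without F4/80+ replicate 2. Relative to Mt2 tissue it was 1.52 in F4/80+ and 1.05 in CD11b+ cells (SEs 0.81 and 0.80, adjusted p = 0.126 and 0.281 by edgeR). Without a filter on low counts the difference for F4/80+ cells was called (adjusted p = 0.0284), and over all alternatives its adjusted p ran from 0.0284 to 0.626. Without F4/80+ replicate 2, the library with 117 counts, that difference was 0.46. The 9 macrophage genes summed to 1282 and 1769 CPM in Mt2 tissue and to 12467 to 20454 CPM over the 6 sorted libraries. In both populations 9 of 9 were called higher, beside 17.2% of all genes in F4/80+ and 17.6% in CD11b+ cells.

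The 24 other genes of the classical activation program, around interferon gamma and toll-like receptor signaling, were followed as a list. Of 21 tested from con to Lt, 9 were called higher and 0 lower by edgeR, beside 12.4% and 0.256% of all genes. So were 6 of 9 macrophage, 5 of 5 monocyte and 3 of 7 neutrophil markers called higher, with 0 lower. The 21 genes had a median of 1.26 on the log2 scale, against 0.10 for all genes. Of the 9 called, Ptgs2 (6.88), the inducible cyclooxygenase, and Acod1 (5.90), which makes itaconate, rose most, and Irf1 (1.18) least. Ptgs2 and Acod1 had 1 count each in all of con, and the ratio of Lt to con was 137 for Ptgs2 (counting interval 24.2 to 5434) and 69.98 for Acod1 (12.2 to 2795). Il6 was at 0 in con, and the median without it was 1.25. Without con replicate 2 this count was 2, without Lt replicate 2 it was 3, and with no filter on low counts it was 14. In Ht, 12 of 21 were called higher and 0 lower relative to con, beside 25.8% and 24.1% of all genes, with a median of 1.33 with or without Il6 against 0.09, from Ptgs2 (8.01) and Acod1 (5.20) to Irf5 (1.33) and Cd86 (1.13). Over that step 8 of 9 macrophage and 5 of 5 monocyte markers were also called higher. From Lt to Ht the endotoxin receptor Tlr4 (1.39) was called higher and the cytokine Il1b (-2.20) lower, beside 11.7% and 20.2% of all genes. From Mt to Ht Il1b (-2.79) was called lower, beside 1.5% of all genes called higher and 13.4% lower. Without Ht replicate 1, Ht replicate 2 or Lt replicate 1 the count from Lt to Ht was 1, while it was 4 by DESeq2 and with only the groups compared, 5 with no filter, and 8 higher and 0 lower with total-count scaling, which lost the call of Il1b. Without either Ht replicate or Mt3 replicate 1 the count from Mt to Ht was 0, as it was with only the groups compared. It was 3 lower with no filter, and 1 higher and 1 lower with total-count scaling. Relative to Mt2 tissue 18 of 22 were called higher and 0 lower in each sorted population, beside 17.2% and 17.6% of all genes called higher and 25.2% and 26.3% lower. Their medians were 2.03 in F4/80+ and 1.98 in CD11b+ cells, against -0.12 and -0.08 for all genes. In F4/80+ cells Il1b (5.47) and Tnf (5.44) rose most and Cxcl10 (1.36) and Nfkb1 (1.07) least, and in CD11b+ cells the same names stood at the ends, Il1b at 6.77, Tnf at 5.89, Cxcl10 at 1.49 and Nfkb1 at 1.14. Between the populations 0 of 21 were called by edgeR and 1 by DESeq2, with 3 at an unadjusted p under 0.05.

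Genes around arginine, the substrate of Nos2, were followed as a list of 16, without Nos2. Besides genes that carry, make or use arginine, it holds linked steps that do not act on arginine itself, such as Cps1, Otc and Odc1. From con to Lt, 3 of the 16 were called higher and 0 lower by edgeR, beside 12.4% and 0.256% of all genes. The 16 genes had a median of -0.55 on the log2 scale, against 0.10 for all genes tested. No filter on low counts gave 3 higher and 3 lower, and only the groups compared 3 and 2. The genes called higher were Slc7a1 (3.52), a cationic amino acid transporter, Sms (1.57), which makes spermine, and Gatm (1.42), which makes the creatine precursor guanidinoacetate. From con to Ht, 6 were called higher and 8 lower, beside 25.8% and 24.1% of all genes, with a median of -2.11 against 0.09 for all genes. At the ends of the list stood Otc (-7.51), which joins carbamoyl phosphate to ornithine, and Cps1 (-6.98) on the lower side and Slc7a1 (5.36) and Gatm (2.58) on the higher side. Ass1 and Asl, which make arginine, had log2 fold changes of -6.35 and -4.91 (adjusted p = 7.42e-04 and 4.17e-04 by edgeR), and Slc7a2, the arginine transporter of hepatocytes and activated macrophages, -6.06 (adjusted p = 7.58e-04). Odc1, which turns ornithine into putrescine, was called higher, with a log2 fold change of 1.02 (SE 0.27, edgeR adjusted p = 0.00932).

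Between Lt and Ht the list had 3 genes called higher and 8 lower, beside 11.7% and 20.2% of all genes. Among them were Slc7a1 (1.84), Ddah2 (1.17), Otc (-6.65) and Cps1 (-5.93), and the median was -1.88 against -0.01 for all genes. From Mt to Ht 8 were called lower and 0 higher, beside 13.4% and 1.5% of all genes, with a median of -1.44 against 0.00. Of the genes called, Otc (-5.63) and Cps1 (-5.10) fell most and Ddah1 (-2.45) and Asl (-2.42) least. Without Ht replicate 1 or 2, edgeR called 0 of the list in that comparison, with 9 at an unadjusted p under 0.05 in each case. Relative to Mt2 tissue, 1 gene was called higher and 10 lower in F4/80+ cells, beside 17.2% and 25.2% of all genes. In CD11b+ cells 1 was called higher and 11 lower, beside 17.6% and 26.3% of all genes. With at least 10 counts in every library, which tests fewer genes, 1 was called higher and 5 lower in each population. The 11 hepatocyte genes were lower in the same comparisons, with 11 of 11 called and medians of -4.88 from Lt to Ht, -4.05 from Mt to Ht, and -8.29 and -9.27 from Mt2 tissue to F4/80+ and CD11b+ cells. The arginine gene called higher was Gatm in both populations, with log2 fold changes of 2.51 and 2.44. Between the sorted populations 0 of 12 tested were called by edgeR, 0 by DESeq2, and 0 had an unadjusted p under 0.05.

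Mrc1 (ENSMUSG00000026712, GRCm38 chr2:14229392-14332057, plus strand), the mannose receptor, was highest in Ht among the tissue groups. Con had 133 and 102 CPM, L-con 137, Lt 98.2 and 105, Mt3 123 and 121, Mt2 121 and 132, Mt1 165 and 141, and Ht 221 and 224. Both Ht samples lay above all other tissue samples, whereas Mt2 (126 ± 7.95, SD, n = 2), Mt3 (122 ± 1.48), con (118 ± 21.4) and Lt (102 ± 4.98) were neighbors whose ranges overlapped, and Mt1 (153 ± 16.9) lay between them and Ht (222 ± 2.11). The host gene contains Mir511 on the same strand, to which at most 3 counts were assigned in any library. The log2 fold change was 1.11 from Lt to Ht (SE 0.18, edgeR adjusted p = 0.00333), a called increase. From con to Ht it was 0.90 (SE 0.18, edgeR adjusted p = 0.00225) and from Mt to Ht 0.74 (SE 0.14, edgeR adjusted p = 0.0109), both under the fold threshold. The former passed it with total-count scaling (2.09), with at least 10 counts in every library (1.03), with no filter (1.02) and without con replicate 1 (1.11), and the latter with total-count scaling (1.29). Lt differed from con by -0.21 (SE 0.18, edgeR adjusted p = 0.471), which turned to 0.10 under total-count scaling. That scaling moved the median of all genes by 0.29 from con to Lt, 1.18 from con to Ht, 0.89 from Lt to Ht and 0.55 from Mt to Ht on the log2 scale, so the tissue changes are given relative to TMM. On library totals con (88.0 and 69.7 CPM) and Lt (72.4 and 96.2) lay below every sample of Mt3 (98.6 and 104.3), Mt2 (108 and 174.7) and Mt1 (170.03 and 193). On the TMM scale they lay below both Mt1 samples.

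Markers of the cell types that carry Mrc1 differed in direction over the tissue. The 9 macrophage genes summed to 518 and 329.8 CPM in con, 911 and 1339.5 in Lt and 2081 and 2109 in Ht, with Csf1r the most abundant in con and C1qb in Lt and Ht. Adgre1, the gene of F4/80, had a log2 fold change of 1.76 from con to Ht (adjusted p = 8.83e-04 by edgeR). Per 1000 CPM of the macrophage sum, Mrc1 amounted to 256 and 311 CPM in con and 155 in L-con, with 108 and 78.6 for Lt and 106 and 106 for Ht. Markers of Kupffer cells, the resident macrophages of the liver, summed to 448 and 337 CPM in con, 771 and 728 in Lt and 81.8 and 135 in Ht. Of these markers 3 of 6 were called lower from con to Ht and 5 of 6 from Lt to Ht, beside 24.1% and 20.2% of all genes. The 6 genes of liver sinusoidal endothelium summed to 617 and 485 CPM in con and 427 and 447 in Ht, but in Ht Stab1, which macrophages also express, made up 403 CPM of it on average. Mrc1 per 1000 CPM of this sum was 215 and 211.5 CPM in con and 518 and 501 in Ht, the opposite order to the ratio with macrophage genes. Stab2, a scavenger receptor of that endothelium, was at 111 and 97.6 CPM in con and 7.09 and 11.6 in Ht, with a log2 fold change of -3.51 from con to Ht (adjusted p = 4.79e-04 by edgeR). Over that step 5 of the 6 were called lower and 1 higher, beside 24.1% and 25.8% of all genes, and none was at 0. The part of either cell type in the Mrc1 values was not tested.

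On the TMM scale the sorted cells held more Mrc1 than any tissue sample, but on library totals CD11b+ replicate 3 (295.6 CPM) lay below both Ht samples (337.1 and 335). Its level was 888, 573 and 562 CPM in F4/80+ cells and 664, 697 and 311 in CD11b+ cells, so the populations (674 ± 185 and 557 ± 214, SD, n = 3 each) overlapped and CD11b+ replicate 3 was the lowest. Relative to Mt2 tissue Mrc1 was higher by 2.42 in F4/80+ cells (SE 0.33, edgeR adjusted p = 2.76e-05) and by 2.14 in CD11b+ cells (SE 0.33, edgeR adjusted p = 6.56e-05) on the log2 scale, in 3 of 3 libraries each. Between the populations the log2 fold change was 0.23 (SE 0.33, edgeR adjusted p = 0.757). It was -0.02 without F4/80+ replicate 1 and -0.05 without CD11b+ replicate 3. The 9 macrophage genes had a median log2 fold change of 3.18 in F4/80+ and 3.32 in CD11b+ cells over the same step. Mrc1 per 1000 CPM of their sum was 57.7, 39.35 and 39.6 CPM in F4/80+ and 48.1, 55.9 and 15.2 in CD11b+ cells. Of the sinusoidal endothelial markers, Stab2 was at 53.7, 43.5 and 23.5 CPM in F4/80+ cells, near the 75.4 and 26.9 of Mt2 tissue, and at 6.69, 8.63 and 3.13 in CD11b+ cells. All 6 of these markers had positive log2 fold changes in F4/80+ relative to CD11b+ cells, with 0 called by edgeR and 3 at an unadjusted p under 0.05. The 6 Kupffer cell markers summed to 603 to 2385 CPM in F4/80+ cells, led by Clec4f, and 56.0 to 124 in CD11b+ cells, led by Cd5l. Of them 0 of 6 were called by edgeR, with 6 of 6 at an unadjusted p under 0.05, as were 1503 of all 14263 genes.

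**Figure D2:**
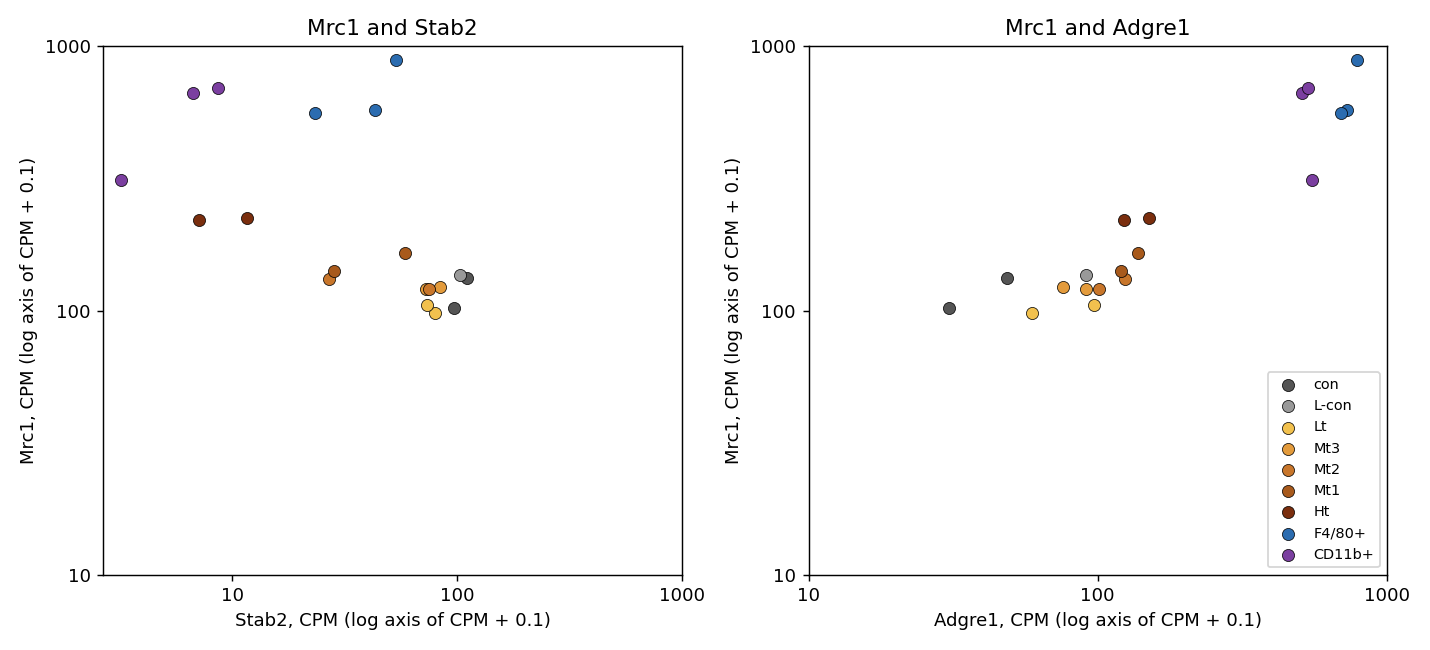
Mrc1 against, left, Stab2 of sinusoidal endothelium and, right, the macrophage gene Adgre1 (F4/80), as TMM-scaled CPM per sample on log axes of CPM + 0.1; each point is a sample and colors mark the groups. The Ht samples hold the most Mrc1 of the tissue with Stab2 at 7.09 and 11.6 CPM, while the sorted cells stand apart with Adgre1 at 508 to 785 CPM.

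Chil3 (ENSMUSG00000040809, GRCm38 chr3:106147554-106167564, minus strand), the chitinase-like protein Ym1, was near the counting floor in normal liver and present in every tumor-bearing sample. Con had 0.549 and 0 CPM (6 and 0 counts), L-con 0.864, Lt 3.66 and 5.47, and Mt3 2.03 and 6.74. Mt2 had 3.84 and 10.3 CPM, Mt1 25.1 and 9.36, and Ht 5.81 and 14.5. Every Lt, Mt and Ht sample exceeded con and L-con, and the tumor groups, in the order Mt1, Ht, Mt2, Lt and Mt3 by their means, each overlapped the next. Ht was above con by 5.19 on the log2 scale (SE 1.16, edgeR adjusted p = 0.00381), higher in 2 of 2 Ht samples. Without con replicate 1, which left con at 0 counts, the call held with an adjusted p of 0.00936 and the fitted change gives no bound. From con to Lt it was 4.06 (SE 1.19), with an adjusted p of 0.0525 by edgeR that missed the threshold; over the alternatives that kept all libraries this p ran from 7.83e-14 to 0.0702. Leaving out 1 library it ran from 0.0769 to 0.237, with log2 fold changes from 3.03 without con replicate 2 to 9.51 without con replicate 1, the latter with con at 0 counts and no bound. Neither Lt to Ht nor Mt to Ht gave a call, with log2 fold changes of 1.12 and 0.31 (SEs 0.82 and 0.64, adjusted p = 0.289 and 0.739 by edgeR). Without a filter on low counts the former was called (1.24, adjusted p = 0.00217, within a range of 0.00217 to 0.823 over all alternatives), and without Ht replicate 2 the latter was -0.49.

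The sorted cells held far more Chil3. Its level was 88.3, 125 and 282 CPM in F4/80+ cells and 335, 451 and 449.8 in CD11b+ cells, so all CD11b+ libraries (412 ± 66.7, SD, n = 3) lay above all F4/80+ libraries (165 ± 103). Relative to Mt2 tissue the log2 fold change was 4.53 in F4/80+ cells (SE 0.77, edgeR adjusted p = 1.92e-04) and 5.84 in CD11b+ cells (SE 0.83, edgeR adjusted p = 3.19e-05), higher in 3 of 3 libraries each. Leaving out 1 library, it ran from 3.94 to 5.47 in F4/80+ and from 5.32 to 6.77 in CD11b+ cells. Between the populations the log2 fold change was -1.37 in F4/80+ relative to CD11b+ cells (SE 0.41, edgeR adjusted p = 0.326). DESeq2 gave an adjusted p of 0.0359 for that difference, and leaving out 1 library moved it from -1.07 to -2.00, the latter without F4/80+ replicate 3. The 5 monocyte markers summed to 1526, 1913 and 1739.98 CPM in F4/80+ and 1651, 1871 and 2497 CPM in CD11b+ cells, led by Ccr2 in both. Monocyte markers were also higher in tumor tissue: their sum was 11.9 and 9.92 CPM in con, 233 and 529.975 in Lt and 904 and 885 in Ht. From con to Lt and from con to Ht 5 of 5 were called higher, beside 12.4% and 25.8% of all genes. The medians of the 5 were 5.67 and 5.11. Per 1000 CPM of the monocyte sum, Chil3 amounted to 57.9, 65.5 and 162 CPM in F4/80+ cells and 203, 241 and 180.2 in CD11b+ cells, and to between 0 and 46.2 in the tissue samples. Vcan led the sum in Lt, Mt and Ht (638 of 895 CPM in Ht). It was called lower in both sorted populations than in Mt2 tissue (-2.76 and -2.51), beside 25.2% and 26.3% of all genes. The other 4 markers were called higher, beside 17.2% and 17.6% of all genes. The part of Vcan in this separation was not tested. Per 100 counts of Ly6c2 alone, Chil3 had 99.0 and 22.5 counts in Mt1 and 25.4 and 45.4 in Ht. It had 32.0, 32.3 and 67.5 in F4/80+ cells and 96.7, 132 and 58.2 in CD11b+ cells. Of these tissue samples, Mt1 replicate 1 and Ht replicate 2 lay within the range of the sorted libraries. Mt2 had 14.15 and 17.84, Lt 14.63 and 6.749, Mt3 9.508 and 11.36, and L-con 10.1, all below every sorted library. Con, at 12 and 8 counts of Ly6c2, was left out. Reads can be shared with Chil4 (Ym2), the close paralog of Chil3. Chil4 had 0 counts in 5 of the 6 sorted libraries and 1 in the other. In tissue it had at most 24, in Mt1 replicate 2.

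Neutrophil markers were also unevenly held by the sorted cells. The 8 neutrophil genes summed to 162, 261 and 630.4 CPM in F4/80+ cells, with Csf3r the most abundant, and to 1492, 994 and 4575 CPM in CD11b+ cells, led by S100a9. None of the 8 was at 0 in all libraries of either population, and 0 of 8 were called between them by edgeR, with 6 at an unadjusted p under 0.05. Per 1000 CPM of the neutrophil sum, Chil3 amounted to 546, 480.2 and 448 CPM in F4/80+ cells and 224.5, 454 and 98.3 in CD11b+ cells, so against this sum it was not the higher in CD11b+ cells. The part of neutrophils in the Retnla and Chil3 levels was not tested.

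Retnla (ENSMUSG00000061100, GRCm38 chr16:48842551-48844461, plus strand), the resistin-like protein FIZZ1, was at or under the floor in nearly all tissue. Con had 1 and 0 counts, L-con 3 and Lt 9 and 0, with at most 2 in each sample of Mt3, Mt2, Mt1 and Ht. No tissue comparison was made for it, and any difference below the floor was not detectable at this depth. In the sorted cells it was at 0.606, 0.246 and 0.148 CPM in F4/80+ cells (12, 5 and 3 counts) and 2.14, 0.635 and 1.68 in CD11b+ cells (45, 15 and 29 counts). By CPM the populations did not overlap, but their nearest libraries, with 12 and 15 counts, stood at 0.606 and 0.635 CPM. The log2 fold change between them was -2.18 in F4/80+ relative to CD11b+ cells (SE 0.65, edgeR adjusted p = 0.328, unadjusted p = 0.0109), and leaving out 1 library moved it from -1.82 to -2.92, the latter without F4/80+ replicate 1. With 2 counts in all of Mt2 tissue, the ratio of CD11b+ cells to tissue was 28.0, with a counting interval of 7.53 to 235 (95%, exact, counting error only). The fitted log2 fold change was 4.62 (SE 1.31, edgeR adjusted p = 0.00784), and without Mt2 replicate 2 it was 3.47 with an adjusted p of 0.071. Without Mt2 replicate 1, which left Mt2 at 0 counts, it was 7.87, which gives no bound. For F4/80+ cells the ratio was 6.46, with 1.57 to 57.0, and 12 of the 20 counts were in F4/80+ replicate 1. The fitted log2 fold change was 2.48 (SE 1.38, edgeR adjusted p = 0.143). Leaving out 1 library moved it from 1.35 to 5.74, a range that includes the fit with Mt2 at 0 counts.

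In CD11b+ cells the paralogs of Retnla were unlike it in level, whereas in F4/80+ replicate 1 Retnla had 12 counts and Retnlg 5. Retnlg, expressed by neutrophils, had 5, 61 and 364 counts in F4/80+ and 1087, 1355 and 2699 in CD11b+ cells, against 45 counts of Retnla at most. Retnlb had 0 counts in every library. Eosinophil markers were low, with Siglecf, Epx and Prg2 summing to at most 6.90 CPM in any library and all 3 at 0 in con.

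RefSeq promoters, each 250 bases before to 50 bases after the gene start, were at hand for 3 of the 4 members, Mrc1, Retnla and Chil3. Those of Retnla and Chil3 are shown because each held a match to a motif searched, and that of Mrc1 held none. The windows were searched on both strands for 4 motifs: a spaced palindrome of the form bound by STAT6, TTC followed after any 4 bases by GAA, the form shared by other STAT factors with any 3 bases between, the C/EBP palindrome TTGCGCAA, and TATAAA. Of all 32851 promoters of this length, 6.95%, 8.3%, 0.183% and 13.6% hold them, in this order. The Retnla window (GRCm38.p6 chr16:48842359-48842658, plus strand) held the STAT6 form at bases 106 to 115 and TATAAA at bases 221 to 226. The Chil3 window (chr3:106167515-106167814, minus strand) held the form with 3 bases between at bases 79 to 87 and TATAAA at bases 248 to 253. The Mrc1 window is chr2:14229164-14229463 on the plus strand, and the matches did not overlap. The matched letters are in capitals, and a match describes these letters only.
Retnla: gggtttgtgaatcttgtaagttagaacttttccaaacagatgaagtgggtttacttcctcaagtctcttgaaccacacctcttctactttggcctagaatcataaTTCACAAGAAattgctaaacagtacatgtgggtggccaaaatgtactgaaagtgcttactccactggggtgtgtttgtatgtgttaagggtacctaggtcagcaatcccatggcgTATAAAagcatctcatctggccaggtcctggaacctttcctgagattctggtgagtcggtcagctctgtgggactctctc
Chil3: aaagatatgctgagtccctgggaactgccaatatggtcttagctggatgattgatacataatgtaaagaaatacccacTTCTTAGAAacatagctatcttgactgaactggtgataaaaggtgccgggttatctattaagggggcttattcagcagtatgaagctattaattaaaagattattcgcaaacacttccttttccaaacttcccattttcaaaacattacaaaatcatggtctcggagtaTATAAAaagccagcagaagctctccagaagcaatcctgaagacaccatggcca

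The other genes of the alternative activation program, a list of 20 around IL-4, IL-13 and STAT6, had calls in tissue and in sorted cells. Of 19 tested from con to Lt, 8 were called higher and 0 lower by edgeR, beside 12.4% and 0.256% of all genes. Macrophage markers (6 of 9) and monocyte markers (5 of 5) were also called higher, with 0 lower. The 19 genes had a median of 1.54 on the log2 scale, against 0.10 for all genes. Of the 8 called, the lectin Mgl2 (4.81) and the chemokine Ccl17 (4.50) rose most. The scavenger receptor Msr1 (1.30) and the transglutaminase Tgm2 (1.14) rose least. Ccl17 had 1 count in all of con, and the ratio of Lt to con was 25.5 (counting interval 4.25 to 1036). Without con replicate 2 the count was 3. Between con and Ht 11 were called higher and 3 lower, beside 25.8% and 24.1% of all genes. The median was 1.81 against 0.09 for all genes. The genes called ran from Mgl2 (5.01) and Ccl17 (4.93) to Il13ra1 (-1.69) and the hemoglobin scavenger receptor Cd163 (-1.70). The strict filter of 10 counts per library, which tests fewer genes, left 4 higher and 3 lower. Macrophage markers (8 of 9) and monocyte markers (5 of 5) were also called higher from con to Ht, and 3 of 6 Kupffer cell markers lower. From Lt to Ht 1 was called higher, Klf4 (1.36), and 5 lower, beside 11.7% and 20.2% of all genes. Those called lower included Cish (-2.96), Ccl24 (-2.27) and Pparg (-1.35). Fewer were called without Ht replicate 1 or without Lt replicate 1. Over that step 5 of 6 Kupffer cell and 11 of 11 hepatocyte markers were called lower. From Mt to Ht 0 were called higher and 4 lower, beside 1.5% and 13.4% of all genes. The genes called lower were Ccl24 (-2.03), Il13ra1 (-1.62), Cd163 (-1.62) and Pparg (-1.21). None of these calls held by edgeR without Ht replicate 1 or without Ht replicate 2.

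Of the receptor chains and the transcription factor of this program, Il4ra, Il2rg and Stat6 were called higher in the sorted cells than in Mt2 tissue, and Il13ra1 was not (0.45 and 0.57, adjusted p = 0.192 and 0.106 by edgeR). Il4ra, the shared receptor chain for IL-4 and IL-13, was at 642, 492 and 485 CPM in F4/80+ and 537, 599.9 and 336 CPM in CD11b+ cells, against 83.8 and 96.9 in Mt2 tissue, with log2 fold changes of 2.58 and 2.44 (adjusted p = 1.19e-06 and 1.51e-06 by edgeR). Stat6 had log2 fold changes of 1.62 and 1.44 (adjusted p = 4.78e-06 and 1.19e-05 by edgeR). The cytokines themselves were scarce: Il13 was at 0 counts in 18 of 19 samples, with 2 counts in L-con, and Il4 was at most 1.59 CPM in any sample. Of the 19 tested, 12 were called higher and 1 lower in F4/80+ cells relative to Mt2 tissue (17.2% and 25.2% of all genes), with a median of 1.69 against -0.12 for all genes, from Egr2 (3.18) and Klf4 (2.67) to Pparg (1.5) and Cish (-1.27). In CD11b+ cells 13 were called higher and 1 lower (17.6% and 26.3% of all genes), with a median of 2.08 against -0.08, from Clec10a (4.12) and Ccl17 (3.19) to Pparg (1.39) and Cish (-1.15). Between the populations 0 of 19 were called by edgeR and 4 by DESeq2, which called 300 of all genes, with 6 at an unadjusted p under 0.05. With no filter on low counts edgeR called 5, beside 242 of all genes, and without CD11b+ replicate 3 edgeR called 2.

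Markers of other cells were followed as well. Endothelial genes summed to 81.0 to 166 CPM in F4/80+ cells and 43.2 to 46.2 in CD11b+ cells, led by Cdh5 and Pecam1. Dendritic cell genes summed to 13.6 to 28.7 CPM in F4/80+ and 46.8 to 134 in CD11b+ cells, led by Flt3 and Cd209a, and lymphocyte genes to 14.6 to 26.5 CPM over both, led by Cd4. Epithelial genes, led by Krt8 in tissue, summed to 111 to 955 CPM in tissue and to at most 5.69 CPM in the sorted cells. The defining markers of the labels were present in both populations, with Adgre1 at 692 to 785 CPM and Itgam, the gene of CD11b, at 245 to 296 CPM in F4/80+ cells, and Adgre1 at 508 to 547 and Itgam at 350.1 to 439 CPM in CD11b+ cells. Between them Adgre1 differed by 0.42 on the log2 scale (adjusted p = 0.427 by edgeR), and no test is given for Itgam.

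The genes whose tissue pattern was most like a member were found by Pearson's r of log2(CPM + 1) over the 13 tissue samples, among 13928 genes with a mean of at least 1 CPM. For Chil3 they were Tlr6 (r = 0.953, rho = 0.9505), B430306N03Rik (0.946, 0.956) and Hebp2 (0.945, 0.885). For Mrc1 the likeness was looser, with Pcif1 (r = 0.909, rho = 0.835), Arid2 (0.905, 0.753) and Zfp319 (0.9045, 0.846). Nos2 and Retnla had a mean under 1 CPM in tissue and were left out. These samples share groups and differ widely in tumor content, and the values are a description.

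Over the 6 sorted libraries, among 13003 genes, Mrc1 was most like Kctd10 (r = 0.997), BC049715 (0.995) and Vezt (0.9945), and Chil3 most like Armt1 (0.986), Myoz1 (0.984) and Acat2 (0.983). Nos2, at few counts, was most like Ccdc174, Tmtc2 and Zbtb6 (0.980, 0.980 and 0.970). Genes like Retnla, also at few counts, included Aunip and Hibadh (0.983 and 0.972). With 6 libraries in 2 populations, many genes reach such values, and Spearman's rho for these pairs ran from 0.886 to 1.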

How the data were processed

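The per-gene counts are the deposited counts. The submitters' processing notes give CASAVA base calling, HISAT2 2.0.5 alignment to GRCm38 (mm10) and featureCounts 1.5.0-p3. Counts were tested with edgeR 4.0.16 in R 4.3.3 (limma 3.58.1), with TMM scaling, its filter on low counts by group, and its quasi-likelihood F test. One model covered the 13 tissue samples (17187 genes tested), one the 6 sorted libraries (14263) and one all 19 samples (18407), and DESeq2 1.42.0 was run as an alternative. Levels are CPM on the joint TMM scale and FPKM uses the deposited gene lengths. Python 3.11.15 and matplotlib 3.10.9 were used for levels and figures. Text was written for the 4 members in every comparison. Of the pathway lists, the 2 called genes with the largest and the 2 with the smallest log2 fold change in each comparison were named. So were the most abundant marker and markers at 0 of each cell type list, a set of genes beside which members are set, and up to 3 genes most like each member. Stab2, Il4, Il13, Siglecf, Epx, Prg2 and any other gene outside these were chosen after their values were seen. Some genes are not reported here. The members and lists were chosen with earlier results of these data known.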

Additional observations from a re-analysis of the deposited data

Results flagged for a closer look

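The tumor-free liver remote from the tumor (L-con) entered none of the comparisons, and 2 members above the floor of 3 counts were above both normal livers in it. Mrc1 was at 137 CPM in L-con, where the higher con sample had 133 CPM, and Chil3 was at 0.864 CPM, where the higher con sample had 0.549 CPM. Retnla and Nos2 had 3 counts and 1 count there, which is not over the floor, beside at most 1 count of each in a con sample. Marker sums were also higher in L-con than in con, at 881 CPM for macrophages (con 518 and 329.8), 91.2 for monocytes (11.9 and 9.92) and 959 for Kupffer cells (448 and 337). L-con is a single sample, and none of these differences was tested.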

How the results depend on the processing

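Of 295 log2 fold changes of members recomputed under an alternative, 269 kept direction and side of the threshold, 14 passed it newly, 5 no longer passed it and 7 turned in direction; the causes were not tested. From con to Lt edgeR called 0 members, with 1 at an unadjusted p under 0.05, beside 4917 of all genes. The number of members called was 1 by DESeq2, 1 with total-count scaling, 1 with no filter on low counts and 1 with only the groups compared. From con to Ht it was 2 by edgeR and ran from 1 to 3 over the alternatives that kept every sample of both groups. It was 3 where Mrc1 was called as well, and some fits that left out 1 replicate gave fewer than 2. From Lt to Ht it was 2 with no filter. From Mt to Ht it was 1 without the fold threshold and 1 with total-count scaling. From CD11b+ to F4/80+ it was 1 by DESeq2. From Mt2 tissue to F4/80+ it was 3 with no filter on low counts, where Nos2 was called as well. With at least 10 counts in every library, which tests fewer genes, it was 1 from con to Ht, 1 from Mt2 tissue to F4/80+ and 1 from Mt2 tissue to CD11b+. Total-count scaling turned Mrc1 from con to Lt to 0.10 and Nos2 from Mt to Ht to 0.054. Leaving out 1 replicate gave log2 fold changes from Mt to Ht of -0.71 to 0.31 for Nos2 and -0.49 to 0.83 for Chil3. From CD11b+ to F4/80+ it gave -0.68 to 0.79 for Nos2 and -0.054 to 0.417 for Mrc1. A group left with 1 sample was assumed to vary like the others. With the replicate block, a term for replicate number, the members called in the tissue and sorted comparisons numbered 0, 2, 1, 0 and 0. Between the sorted populations the block gave 78 of all genes called, 28 higher and 50 lower in F4/80+ cells, against 11 without it. Nothing says whether replicate numbers pair samples. The block on tissue with sorted cells and the exchange of replicate numbers were chosen after seeing the data. With CPM on library totals, 13 of 36 group levels were counted as moved. That count takes shifts of 1 SD or more, and also every level of L-con, a single sample with no SD. Depth limits Retnla and Nos2 in con.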
